A study of Mus musculus with 6 samples.

Results

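The 9 genes described here encode enzymes that make neurotransmitters and transporters that load them into synaptic vesicles: Slc17a6 and Slc17a7 for glutamate, Gad1, Gad2 and Slc32a1 for GABA, Th and Slc18a2 for monoamines, Slc18a3 for acetylcholine and Slc30a3 for vesicular zinc. They were chosen by gene symbol from the 24444 symbols of the deposited expression table, and all 9 were found. The values are poly(A) RNA-seq levels in telencephalon, the forebrain region that gives rise to the cerebral cortex and basal ganglia. The source is labelled as C57BL/6J mouse embryos at E12.5. There were 3 libraries of the genotype Arl13b-/-, homozygous for mutant alleles of the gene for a GTPase found in primary cilia, and 3 libraries labelled Wild-type. The labels give no other allele, no treatment and no source embryo per library. A p-value here therefore reflects how much the libraries vary, and some of that may be technical.

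Neurons store transmitter in vesicles, and the transporter on the vesicle membrane largely sets which transmitter a neuron releases. In the developing forebrain, Slc17a7 is a transporter of maturing excitatory neurons of the cortex, whereas Slc17a6 is used early and more widely, above all in thalamus, midbrain and hindbrain. Gad1, Gad2 and Slc32a1 are shared by GABA neurons, which in the telencephalon arise in the ganglionic eminences. Th and Slc18a2 serve dopamine and noradrenaline neurons, Slc18a3 serves cholinergic neurons, and Slc30a3 fills vesicles of some glutamate neurons with zinc.

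Promoter sequences of 4 of these genes are shown because each holds a cAMP response element or a piece of the RE1 element. All 9 genes had an entry in the RefSeq promoter table (build GRCm38.p6), with 11 start sites in all. Each window runs from 250 bases before to 30 after the start. Capitals in the first pair mark TGACGTCA, the cAMP response element, and, in Slc18a2, also GCTGTCC, the reverse complement of GGACAGC. Capitals in the second pair mark GGACAGC, the right-hand part of the RE1 element that the neuronal repressor REST binds.
Th, chr7:142899966-142900245, minus strand: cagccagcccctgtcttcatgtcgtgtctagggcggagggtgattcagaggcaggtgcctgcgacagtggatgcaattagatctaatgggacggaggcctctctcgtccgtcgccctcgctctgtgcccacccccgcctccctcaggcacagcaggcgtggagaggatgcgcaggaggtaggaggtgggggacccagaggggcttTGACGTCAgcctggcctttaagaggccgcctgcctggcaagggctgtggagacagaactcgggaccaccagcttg
Slc18a2, chr19:59260628-59260907, plus strand: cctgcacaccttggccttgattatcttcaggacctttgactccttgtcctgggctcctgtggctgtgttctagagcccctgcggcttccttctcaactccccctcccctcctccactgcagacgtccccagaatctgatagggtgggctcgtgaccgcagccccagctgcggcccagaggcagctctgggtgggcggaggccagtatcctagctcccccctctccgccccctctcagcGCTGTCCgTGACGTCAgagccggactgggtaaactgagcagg
Gad2, chr2:22622077-22622356, plus strand: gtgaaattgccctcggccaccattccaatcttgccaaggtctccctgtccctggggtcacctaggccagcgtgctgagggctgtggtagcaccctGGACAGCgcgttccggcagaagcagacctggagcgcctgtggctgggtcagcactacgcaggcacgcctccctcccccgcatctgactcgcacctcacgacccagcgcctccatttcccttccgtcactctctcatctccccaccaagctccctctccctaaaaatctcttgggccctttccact
Slc30a3, chr5:31108215-31108494, minus strand: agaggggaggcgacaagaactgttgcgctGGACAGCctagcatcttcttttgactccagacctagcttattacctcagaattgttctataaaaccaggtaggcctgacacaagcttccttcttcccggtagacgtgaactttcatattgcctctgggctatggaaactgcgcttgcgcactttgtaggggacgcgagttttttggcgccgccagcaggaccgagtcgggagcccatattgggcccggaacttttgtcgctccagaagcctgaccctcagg
The sequence TGACGTCA, searched on both strands, began at −45 from the start of Th and at −4 from that of Slc18a2, the monoamine pair. It was present in 2 of 11 windows of these genes and in 572 of 32851 windows of the table (1.74%). GGACAGC was present in windows of Gad2, Slc18a2 and Slc30a3, 3 of 11, and in 6.05% of all windows, and the match in Slc18a2 did not overlap its TGACGTCA. Of 3 other motifs, TAATTA was found for Slc17a6 (5.09% of all windows), CAGATG for Gad2 and Slc17a6 (16.1%) and TATAAA for Gad1 and Slc30a3 (13.1%). A match describes the letters of these windows and shows no binding.

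The table holds variance-stabilised values, a log2-like scale, and the transformation was undone to give normalized counts. These summed to between 28300000 and 36200000 in the libraries of Arl13b-/- embryos, against 27500000 to 27900000 in wild-type libraries. The depth estimated from the value of 1 read was 27600000 to 47400000 reads in the Arl13b-/- libraries and 35400000 to 51700000 in wild-type. The libraries Arl13b-/- 2 and wild-type 1 stood apart. Normalized counts of the embryonic globin genes Hbb-y, Hba-x and Hbb-bh1 were all 0 in Arl13b-/- 2 and 397, 380 and 10.2 in wild-type 1. Hbb-y ranged from 33298 to 160378 in the other 4 libraries. Hba-a1, another globin gene, was 47.8 in Arl13b-/- 2, 5241 in wild-type 1 and 2110 to 8189 in the rest. Nrgn, a synapse gene, was 67446 in Arl13b-/- 2, 683 in wild-type 1 and 79.6 to 203 in the rest. Whether the E12.5 label holds for these 2 libraries was not tested. With the average of wild-type 2 and 3 set to 0, 12 radial glia and cell cycle genes averaged −4.72 in Arl13b-/- 2 and −1.36 in wild-type 1 on the log2 scale, and 14 genes of maturing synapses averaged 3.48 and 1.83. Across genes kept for testing, which are not replicates, Arl13b-/- 2 correlated with the libraries other than wild-type 1 at 0.702 to 0.722, and the other 4 libraries with each other at 0.985 to 0.995. Differences are therefore given over all 6 libraries and over the 4 that remain without these 2, called the 4-library comparison. Arl13b itself, the gene the genotype names, had 492, 532 and 564 normalized counts in Arl13b-/- 1 to 3, against 661, 553 and 560 in wild-type 1 to 3. Its transcript was thus present in both groups, and the labels do not say what kind of allele was used. The tissue label was set beside Emx1, a transcription factor of the dorsal telencephalon, and a list of 10 telencephalon genes. Emx1 had 145, 2641 and 25.0 normalized counts in Arl13b-/- 1 to 3, against 633, 875 and 1161 in wild-type 1 to 3. Arl13b-/- 1 and 3 were thus below every wild-type library and Arl13b-/- 2 was above. Relative to wild-type 2 and 3, the list averaged −0.41, −2.41 and −1.66 in Arl13b-/- 1 to 3 and −0.74 in wild-type 1. En2, a gene of the midbrain and anterior hindbrain, had 2139 in Arl13b-/- 1, was listed at 0 in Arl13b-/- 2 and had 3337 in Arl13b-/- 3, against 779, 2076 and 1051 in wild-type 1 to 3. In the 4 libraries sex also goes with genotype: Xist had 16292 and 19017 normalized counts in Arl13b-/- 1 and 3, against 26.5 and 213 in wild-type 2 and 3. In that comparison sex and genotype cannot be told apart. Sex was not balanced over all 6 libraries either. The Y-linked Ddx3y, Eif2s3y, Kdm5d and Uty were at 0 in Arl13b-/- 2, and with Xist they summed to only 244 normalized counts there. The same sum was 15103 in wild-type 1, where Eif2s3y was at 0.

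**Figure D1:**
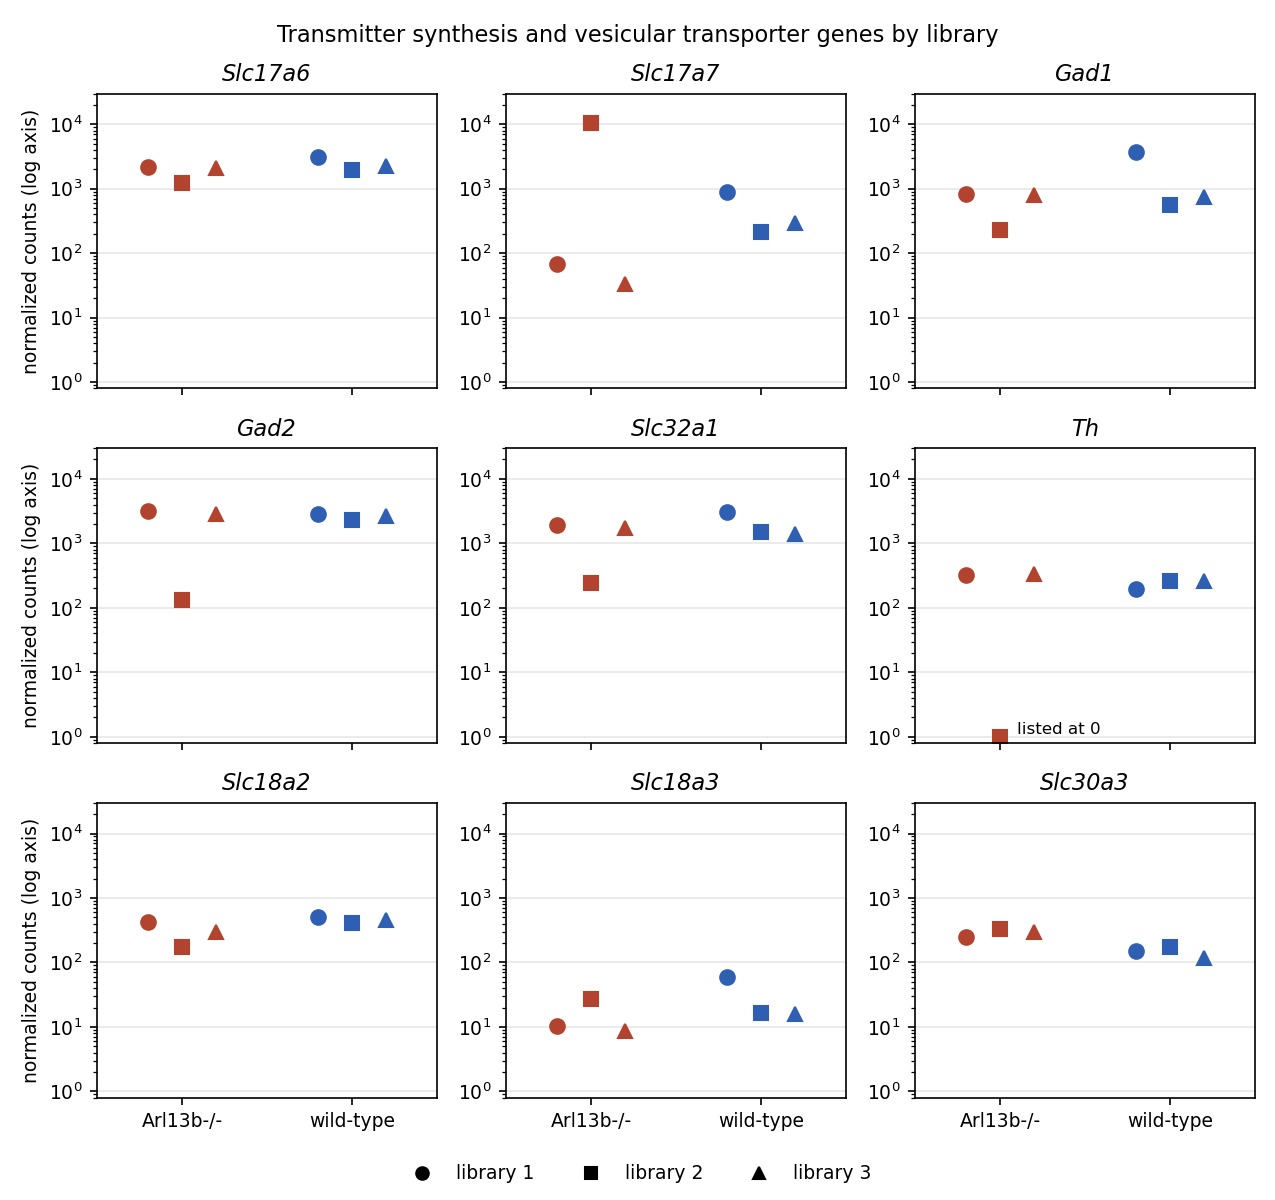
Normalized counts (log axis) of the 9 genes in each library, with Arl13b-/- libraries in red on the left and wild-type libraries in blue on the right; symbols give the library number. Slc17a7 in Arl13b-/- 2 (10532) lies above all other libraries, Th is listed at 0 there and is drawn at the lower edge, and only for Slc30a3 do the groups of 3 not overlap.

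No gene of the 9 passed the test over all genes in either comparison. Over all 6 libraries, in limma, a moderated linear model over the 14249 genes kept, 0 of 9 had an adjusted p under 0.05, as did 0 of all genes (0%). At an unadjusted limma p under 0.05 there was 1 of the 9, Slc30a3, against 1.14% of all genes. The 9 differences, Arl13b-/- minus wild-type on the log2 scale, ran from −1.12 to 0.76 with a median of −0.57, beside a median of 0.0026 over all genes. The groups of 3 did not overlap, with higher values in Arl13b-/-, for 1 of the 9, Slc30a3, against 4.67% of all genes. In the 4-library comparison 0 of 9 passed either, against 0.253% of all genes, and the median difference of the 9 was 0.25 beside 0.023 for all genes. There the groups of 2 did not overlap for 5 genes that were higher and 2 that were lower in Arl13b-/-, and the same held for 29.3% and 18.1% of all genes. Blood and vessel markers also separated those 4 libraries: 8 of 9 were higher in both Arl13b-/- libraries, 0 passed, and their summed count was 107700 and 290250 in Arl13b-/- 1 and 3, against 60678 and 77312 in wild-type 2 and 3. Their part in the 4-library values was not tested. In bulk tissue, fewer cells of a type and less RNA per cell cannot be told apart.

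**Figure D2:**
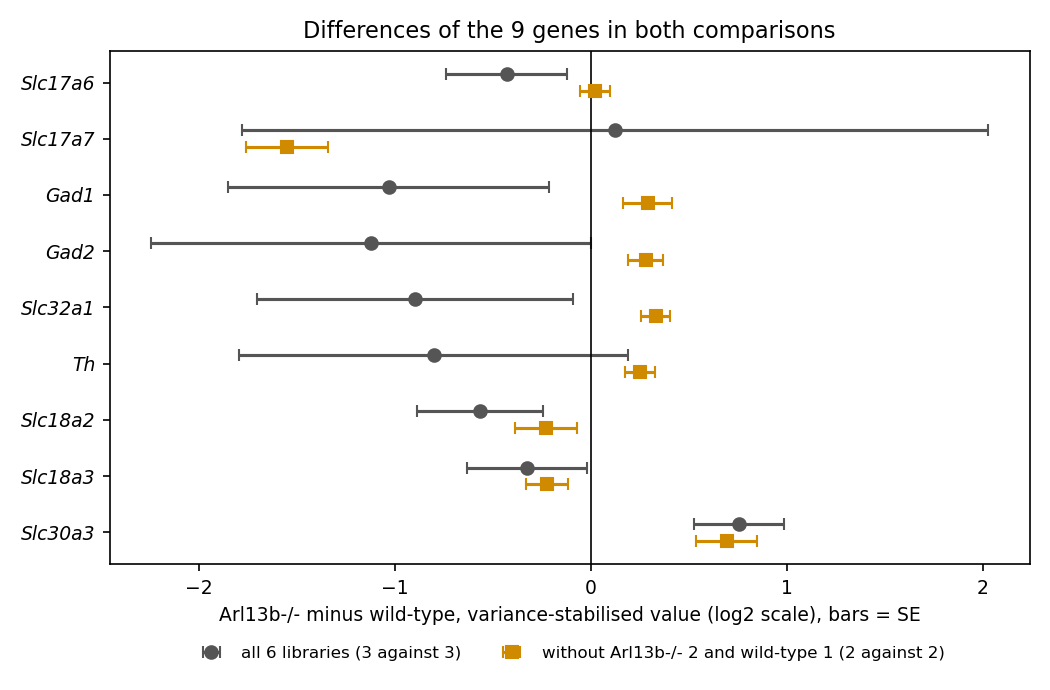
Difference of each gene, Arl13b-/- minus wild-type on the log2 scale, with its standard error, over all 6 libraries (grey circles) and over the 4 libraries without Arl13b-/- 2 and wild-type 1 (orange squares). The 6-library errors are wide, up to 1.90 for Slc17a7, and the sign of Slc17a6, Slc17a7, Gad1, Gad2, Slc32a1 and Th differs between the comparisons.

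The 2 glutamate transporter genes had unlike courses across the libraries. Slc17a7 had 69.2, 10532 and 33.9 normalized counts in Arl13b-/- 1 to 3, against 886, 217 and 290 in wild-type 1 to 3. Arl13b-/- 2 was thus the highest of the 6 libraries and Arl13b-/- 1 and 3 were the lowest, so the groups overlap. Over all 6 libraries the difference was 0.12 ± 1.90 (SE, n = 3 per group; limma adjusted p = 0.998; exact permutation p = 1, two-sided; no lower value than 0.1 is possible with 3 against 3). Without Arl13b-/- 2 it was −2.08 (limma adjusted p = 0.785). In the 4-library comparison it was −1.55 ± 0.21 (SE, n = 2 per group), a mean count 0.204 times that of wild-type, and it did not pass over all genes (limma adjusted p = 0.0714). It passed when Arl13b-/- 1 was also left out (−1.81, limma adjusted p = 0.00500), when Arl13b-/- 3 was (−1.29, limma adjusted p = 0.0490), where the lone library is assumed to vary like the others, and when values were taken relative to 12 general neuron markers (−1.67, limma adjusted p = 0.0193). Adjusted p for Slc17a7 ranged from 0.00500 to 0.431 over the settings tried in the 4-library comparison.

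Some markers of cortical excitatory neurons varied alongside Slc17a7, and others did not. The mean of 14 such genes differed from that of wild-type 2 and 3 by −0.86, 0.56 and −1.42 in Arl13b-/- 1 to 3, and by 0.84 in wild-type 1. In the 4-library comparison 3 of these 14 genes fell and 0 rose (limma adjusted p under 0.05), with a median of −1.07, where 0.182% of all genes fell and 0.0702% rose: Neurod2 by 2.26, Neurod6 by 3.08 and Nfib by 1.11 on the log2 scale (adjusted p = 0.0348, 0.0354 and 0.0437). Neurod2, a transcription factor of these neurons, had 225, 23849 and 153 normalized counts in Arl13b-/- 1 to 3, against 7247, 962 and 1339 in wild-type 1 to 3, an order much like that of Slc17a7. Other genes of the list were low in Arl13b-/- 2. Neurog2 had 59.0 normalized counts there, against 5262 and 5663 in wild-type 2 and 3. Eomes had 31.5, against 2200 and 2987, and Neurog1 was at 0. Neurod6 was highest in wild-type 1, with 9277 against 2864 in Arl13b-/- 2. In the 4-library comparison 10 of the 14 differences were negative and 4 positive. The summed count of the 14 markers ranged from 18170 to 108640 in Arl13b-/- and from 28756 to 71968 in wild-type libraries. The part of these 14 markers in the Slc17a7 values was not tested.

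Slc17a6 varied little across the 4 libraries without the 2 that stood apart. It had 2154, 1208 and 2113 normalized counts in Arl13b-/- 1 to 3, against 3139, 1960 and 2254 in wild-type 1 to 3. Arl13b-/- 2 was lowest and wild-type 1 highest, and the other 4 libraries lay within a range that both groups share. The difference was −0.43 ± 0.31 (SE, n = 3 per group; limma adjusted p = 0.990; exact permutation p = 0.4), and 0.021 ± 0.075 (SE, n = 2 per group; limma adjusted p = 0.926) in the 4-library comparison. Within a library, the ratio of Slc17a7 to Slc17a6 per kilobase of exon was 0.0322, 8.73 and 0.0160 in Arl13b-/- 1 to 3, against 0.283, 0.111 and 0.129 in wild-type 1 to 3. Slc17a6 therefore had the higher level of the pair in 5 of 6 libraries and Slc17a7 in Arl13b-/- 2 alone. A list of 14 markers, mainly of thalamus, pretectum and the mammillary region, where Slc17a6 is widely used, was set beside it. Lhx2 is also among the 10 telencephalon genes. In the 4-library comparison 1 gene rose (Gbx2, by 0.96, limma adjusted p = 0.0437) and 0 fell, where 0.0702% of all genes rose and 0.182% fell. The median of the 14 was 0.34, beside 0.023 for all genes. Groups did not overlap for 8 higher and 2 lower genes, as for 29.3% and 18.1% of all genes. The list mean was −3.87 in Arl13b-/- 2 relative to wild-type 2 and 3. The part of this list in the Slc17a6 values was not tested.

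**Figure D3:**
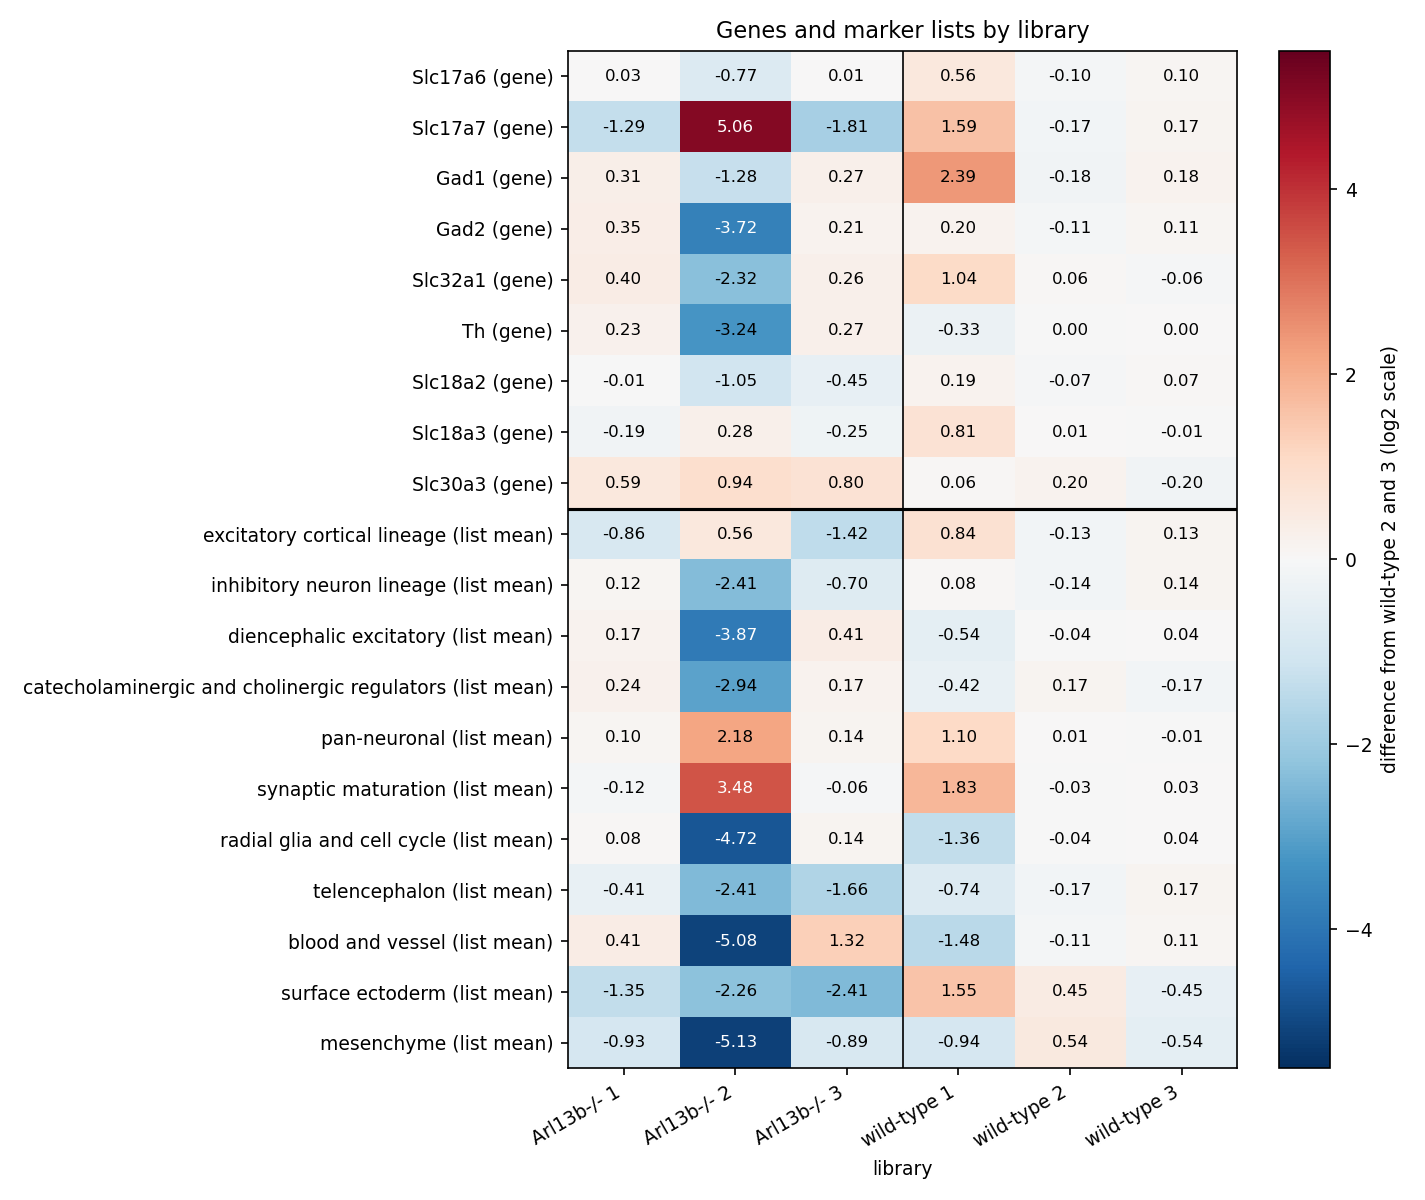
Difference of each gene (upper rows) and of the mean of each marker list (lower rows) from the mean of wild-type 2 and 3, on the log2 scale, for each library; red is higher and blue lower, and each cell prints its value. The maturing synapse list is 3.48 in Arl13b-/- 2 and 1.83 in wild-type 1, the radial glia and cell cycle list is −4.72 and −1.36, and the other 4 libraries stay close to 0 for both.

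The GABA genes were low in Arl13b-/- 2 and similar in the remaining libraries, apart from Gad1 and Slc32a1 in wild-type 1. Gad2, which makes GABA at nerve terminals, had 3182, 131 and 2897 normalized counts in Arl13b-/- 1 to 3, against 2871, 2302 and 2690 in wild-type 1 to 3. Gad1, the other glutamate decarboxylase, had 829, 231 and 800 in Arl13b-/- 1 to 3, against 3718, 569 and 750 in wild-type 1 to 3. Slc32a1, the vesicular transporter of GABA and glycine, had 1940.5, 240 and 1756 in Arl13b-/- 1 to 3, against 3061, 1516 and 1393 in wild-type 1 to 3. All 3 genes were lowest in Arl13b-/- 2, and Gad1 and Slc32a1 were highest in wild-type 1, whereas Gad2 was not. The groups overlap for each gene.

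Over all 6 libraries Gad2 differed by −1.12 ± 1.12, Gad1 by −1.03 ± 0.82 and Slc32a1 by −0.90 ± 0.81 (SE, n = 3 per group; limma adjusted p = 0.990 for each). The exact two-sided permutation p was 1 for Gad2 and 0.6 for Gad1 and for Slc32a1. Leaving out Arl13b-/- 2 alone turned Gad2 to 0.21 and took Slc32a1 to −0.015. In the 4-library comparison all 3 were higher in Arl13b-/- with groups that do not overlap, as were 29.3% of all genes. The differences were 0.28 ± 0.089 for Gad2, 0.29 ± 0.13 for Gad1 and 0.33 ± 0.073 for Slc32a1 (SE, n = 2 per group). None passed (limma adjusted p = 0.265 for Gad2, 0.376 for Gad1 and 0.159 for Slc32a1). General neuron markers were also slightly higher there: 11 of 12 had positive differences with a median of 0.10, and 0 passed. Relative to those markers the differences were 0.16 for Gad2, 0.17 for Gad1 and 0.21 for Slc32a1.

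The balance of the 2 decarboxylases differed in the libraries that stood apart. The ratio of Gad2 to Gad1 per kilobase of exon was 4.99, 0.737 and 4.71 in Arl13b-/- 1 to 3, against 1.004, 5.26 and 4.66 in wild-type 1 to 3. The 4 other libraries thus lay between 4.66 and 5.26 with both genotypes intermixed, while Arl13b-/- 2 and wild-type 1 were at or under 1.004. Slc32a1 relative to Gad2, per kilobase, was 1.28, 3.85 and 1.27 in Arl13b-/- 1 to 3, against 2.24, 1.38 and 1.09 in wild-type 1 to 3. Both ratios again separated Arl13b-/- 2 and wild-type 1 from the other libraries and not the genotypes.

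Markers of ventral telencephalic lineages were low on average in Arl13b-/- 2, as Gad2 was, but not all of them. The mean of 18 such genes differed from wild-type 2 and 3 by 0.12, −2.41 and −0.70 in Arl13b-/- 1 to 3 and by 0.08 in wild-type 1. Lhx6, a transcription factor of interneurons from the medial ganglionic eminence, had 804, 405 and 94.0 normalized counts in Arl13b-/- 1 to 3, against 1964, 797 and 1031 in wild-type 1 to 3. Arl13b-/- 3 was thus the lowest library for Lhx6 while its Gad2 and Slc32a1 counts were above those of wild-type 2 and 3. Some peptide and calcium-binding protein genes of the list were high in Arl13b-/- 2. Npy had 3269 normalized counts in Arl13b-/- 2, against 70.4 and 116 in wild-type 2 and 3. Calb2 had 822, against 263 and 386, and Sst had 856, against 679 and 594, in the same libraries. Of the 18 genes 0 passed in either comparison. Their part in the GABA values was not tested. Annotated genes overlap Gad1 and Slc32a1 in RefSeq, and the counting is not stated to use strand. Gm14204, which overlaps Slc32a1, had 966, 39.4 and 833 normalized counts in Arl13b-/- 1 to 3, against 865, 836 and 823 in wild-type 1 to 3, so its reads and those of Slc32a1 may not be fully told apart. Gad1os, which overlaps Gad1, had 15.9 or fewer in every library.

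Both monoamine genes were lowest in Arl13b-/- 2, where Th had no count. Th, the rate-limiting enzyme of dopamine and noradrenaline synthesis, had 320 and 331 normalized counts in Arl13b-/- 1 and 3 and was listed at 0 in Arl13b-/- 2, against 197, 262 and 264 in wild-type 1 to 3. In Arl13b-/- 2 a single read is worth 1.31 normalized counts. Slc18a2, the vesicular transporter of monoamines, had 429, 177 and 299 in Arl13b-/- 1 to 3, against 504, 409 and 456 in wild-type 1 to 3. The values of the other 5 libraries lay closer together, and the groups overlap for both genes.

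Over all 6 libraries Th differed by −0.80 ± 0.99 and Slc18a2 by −0.57 ± 0.32 (SE, n = 3 per group; limma adjusted p = 0.990 for each; exact permutation p = 1 for Th and 0.2 for Slc18a2). Leaving out Arl13b-/- 2 turned Th to 0.36 (limma adjusted p = 0.785) and took Slc18a2 to −0.29. In the 4-library comparison Th was higher in both Arl13b-/- libraries, by 0.25 ± 0.078, and Slc18a2 differed by −0.23 ± 0.16 with overlapping groups (SE, n = 2 per group; limma adjusted p = 0.257 for Th and 0.563 for Slc18a2). Without Arl13b-/- 3 the Slc18a2 difference was −0.0088, so Arl13b-/- 3 carried it. Of 12 tested regulators of catecholaminergic and cholinergic neurons 0 passed in either comparison, and 8 of the 14 listed were at 0 in Arl13b-/- 2, among them En1. The summed count of the 14 was 4157 to 11930 in Arl13b-/- and 5903 to 9264 in wild-type libraries. Of the 4157 in Arl13b-/- 2, Nr4a2 alone had 4099, against 759 to 1287 in the other libraries. The mean of the list was −2.94 in Arl13b-/- 2 relative to wild-type 2 and 3. The part of this list in the Th and Slc18a2 values was not tested. Of 12 markers of peripheral ganglia, which can also express Th, 6 were at 0 in Arl13b-/- 2, and 0 of 11 tested passed in either comparison. Their summed count was nevertheless highest in Arl13b-/- 2, at 14886, against 5536 to 9314 in the other libraries. Prph, a gene of this list, had 324 normalized counts there, against 56.1 to 140 in the others. The part of this list in the Th values was not tested.

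Slc18a3, the vesicular transporter of acetylcholine, had the lowest median level per kilobase of the 9 genes, although Th was lower in Arl13b-/- 2. It had 10.2, 27.5 and 8.61 normalized counts in Arl13b-/- 1 to 3, against 59.9, 16.5 and 15.7 in wild-type 1 to 3. Arl13b-/- 2 was the highest of its group and wild-type 1 the highest of all, and the groups overlap. The difference was −0.33 ± 0.31 (SE, n = 3 per group; limma adjusted p = 0.990; exact permutation p = 0.5), and −0.22 ± 0.11 (SE, n = 2 per group; limma adjusted p = 0.427) in the 4-library comparison, on a scale that understates the change of low genes. Slc18a3 lies within Chat, the gene for the enzyme of acetylcholine synthesis, so reads could be shared. Chat was listed at 0 in Arl13b-/- 1 and 2 and had 0.617 normalized counts in Arl13b-/- 3, against 10.2, 4.64 and 2.37 in wild-type 1 to 3. With so few reads, the depth limits what either gene can show.

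Slc30a3, the transporter that fills synaptic vesicles with zinc, was the only gene of the 9 with separate groups over all 6 libraries. It had 246, 331 and 293 normalized counts in Arl13b-/- 1 to 3, against 152, 173 and 118 in wild-type 1 to 3. The lowest Arl13b-/- library was above the highest wild-type library. Variance-stabilised values averaged 8.47 ± 0.17 in Arl13b-/- and 7.72 ± 0.20 in wild-type (SD, n = 3 each), a difference of 0.76 ± 0.23 (SE), with an unadjusted limma p of 0.0177. Over all genes tested it did not pass (limma adjusted p = 0.990), and the exact permutation p of 0.1 is the smallest possible. In the 4-library comparison it differed by 0.69 ± 0.16 (SE, n = 2 per group; limma adjusted p = 0.165). The difference was positive in all 18 settings tried with 6 libraries and all 14 with 4, from 0.31 to 0.98 and from 0.50 to 0.91, and no setting gave an adjusted p under 0.0721. The value of 0.31 was relative to general neuron markers, which were highest in Arl13b-/- 2 and wild-type 1. Markers of surface ectoderm also separated the genotypes: all 10 were lower in every Arl13b-/- library than in every wild-type library, against 3.59% of all genes. At an unadjusted limma p under 0.05 there were 8 of the 10, against 1.14% of all genes, and 0 of 10 passed. Their summed count was 120 to 633 in Arl13b-/- and 1626 to 14601 in wild-type libraries. Krt5 and Krt8 were at 0 in Arl13b-/- 2 and Krt14 in Arl13b-/- 3. Their part in the Slc30a3 values was not tested.

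Other zinc exporters of the family had differences in both directions. Of 8 genes 7 were tested, 0 passed in either comparison, and the median difference was −0.12 over 6 libraries and −0.064 over 4. Slc30a9 was higher in Arl13b-/- with separate groups in both comparisons (0.24 ± 0.17 and 0.18 ± 0.057, SE; limma adjusted p = 0.990 and 0.265). Slc30a7 differed by −0.40 ± 0.35 and Slc30a1 by −0.21 ± 0.21 (SE, n = 3 per group; limma adjusted p = 0.990 for each). Slc30a7 differed in the 4-library comparison by 0.010 and Slc30a1 by −0.077 (limma adjusted p = 0.959 for Slc30a7 and 0.808 for Slc30a1). Slc30a4, an exporter of vesicles and endosomes, differed by −0.37 ± 0.095 (SE, n = 2 per group) in the 4-library comparison (limma adjusted p = 0.200), and passed only relative to general neuron markers.

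Per kilobase of exon, Slc32a1, Gad2 and Slc17a6 had the highest medians of the 9. The median over 6 libraries was 585 normalized counts per kilobase for Slc32a1, 473 for Gad2 and 395 for Slc17a6. Th had 111, Gad1 101, Slc18a2 80.2, Slc30a3 74.0, Slc17a7 47.0 and Slc18a3 6.68. Slc32a1 was above Gad2 in 6 of 6 libraries, Slc17a6 above Th in 6 and Slc17a7 above Slc18a3 in 6. The other neighbours changed places between libraries: Gad2 was above Slc17a6 in 4, Th above Gad1 in 4, Gad1 above Slc18a2 in 4, Slc18a2 above Slc30a3 in 3 and Slc30a3 above Slc17a7 in 3. In Arl13b-/- 2 the order was another one, with Slc17a7 first at 1953 normalized counts per kilobase. Lengths are those of all annotated exons together, so a gene with long alternative exons is placed low.

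**Figure D4:**
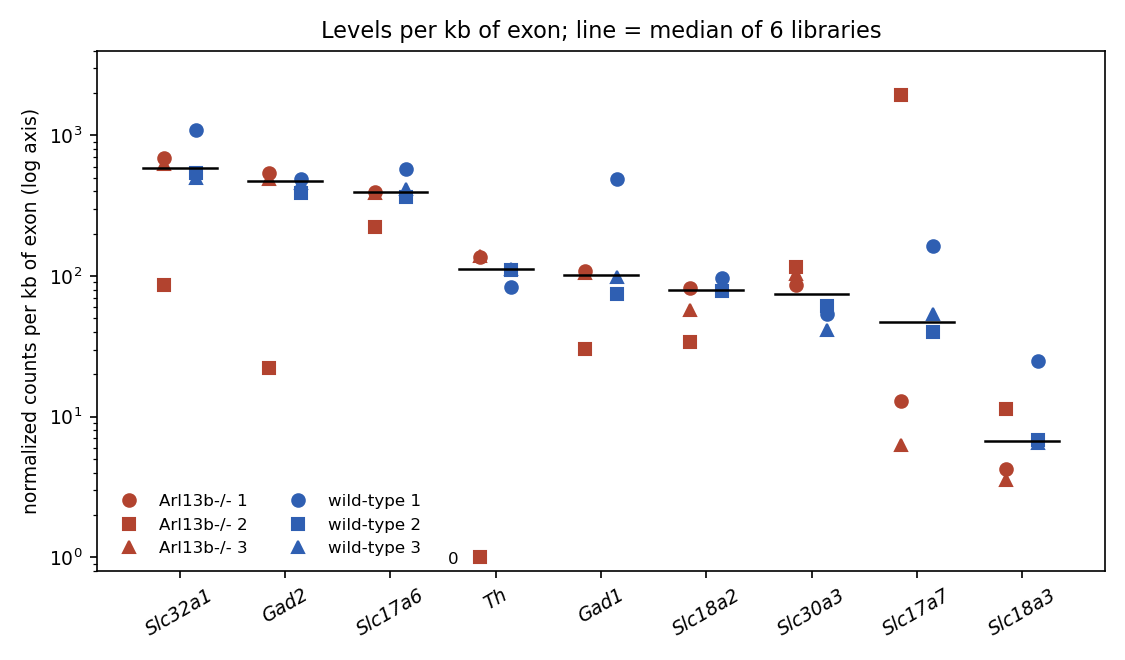
Normalized counts per kilobase of exon (log axis) of the 9 genes, ordered by the median of the 6 libraries (black line); red symbols are Arl13b-/- and blue symbols wild-type libraries. Slc32a1 (585), Gad2 (473) and Slc17a6 (395) lead, and Slc17a7 varies widely, with 12.8, 1953 and 6.28 in Arl13b-/- 1 to 3 and 164, 40.2 and 53.7 in wild-type 1 to 3.

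Genes with the most similar course over the 6 libraries were found by the root mean square difference of centred variance-stabilised values. For Slc17a7 they were Nfix (0.424), Cck (0.488) and Mpped1 (0.526), and for Slc17a6 they were Zbtb20 (0.0573), Dock4 (0.0630) and Gabrq (0.0701). For Gad1 they were Rgs5 (0.152), Ndufa4l2 (0.176) and Actc1 (0.260), for Gad2 Prox1 (0.132), Zic2 (0.136) and Isl1 (0.161), and for Slc32a1 Lyve1 (0.0977), Ttyh2 (0.115) and Prelp (0.122). Th was nearest to Zfp536 (0.0598), Veph1 (0.0762) and Pnoc (0.0846), and Slc18a2 to Tmem51 (0.0745), Zfp300 (0.0929) and Rd3 (0.0935). Slc18a3 was nearest to Nr3c1 (0.0527), Cd82 (0.0561) and Dcaf12l1 (0.0641), and Slc30a3 to Chrna5 (0.153), Aldoa (0.178) and Pced1b (0.188). The nearest genes of the 3 GABA genes did not include another of the 9. All these courses share the same 6 libraries, of which Arl13b-/- 2 and wild-type 1 stand apart.

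Genes that make, recycle or degrade the same transmitters had differences in both directions. Of 69 genes in 6 lists, all were in the table and 61 were tested, and 0 passed in either comparison (limma). The median difference was −0.024 over 6 libraries, with 30 positive and 31 negative, and 0.010 over 4 libraries, with 32 positive and 29 negative. Groups did not overlap for 3 higher and 4 lower genes over 6 libraries (4.67% and 3.59% of all genes). Over 4 libraries they did not overlap for 16 and 12 (29.3% and 18.1% of all genes). At an unadjusted limma p under 0.05 there were 0 over 6 libraries and 8 over 4, where 1.14% and 14.4% of all genes were under it.

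Of 14 genes of glutamate and glutamine handling, Slc1a3, a glutamate transporter of radial glia, had the smallest p (−1.09 ± 0.60, SE), followed by Got2 (0.21 ± 0.15) and Gls2 (0.35 ± 0.30), a glutaminase. Of 8 tested genes for GABA and glycine, Slc6a13 differed by −1.55 ± 0.93 (SE) and the GABA transaminase Abat by −0.44 ± 0.31. Of 14 tested monoamine genes, Hdc, the histamine-making enzyme, differed by −0.85 ± 0.35 (SE), Ddc, the decarboxylase after Th in dopamine synthesis, by −1.37 ± 0.72 and Gch1, which makes the cofactor of Th, by −0.46 ± 0.31. For each of these 8 genes the limma adjusted p was 0.990 (n = 3 per group). Slc1a3 differed in the 4-library comparison by −0.12, Got2 by 0.17, Gls2 by 0.057, Slc6a13 by −0.089, Abat by −0.0049, Hdc by −0.39 and Gch1 by −0.050 (limma adjusted p from 0.201 to 0.982). Slc6a13 had 716 normalized counts in wild-type 1 and was listed at 0 in Arl13b-/- 2, so its 6-library value rests on the libraries that stood apart. Ddc had 221, 2.62 and 172 normalized counts in Arl13b-/- 1 to 3, against 285, 316 and 334 in wild-type 1 to 3, and the groups did not overlap. Thus Th was higher and Ddc lower in Arl13b-/- 1 and 3 than in wild-type 2 and 3, with Ddc at −0.59 ± 0.12 (SE, n = 2 per group; limma adjusted p = 0.137). Ddc passed relative to general neuron markers and without Arl13b-/- 1.

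Of 5 tested acetylcholine genes, the choline transporter Slc5a7 differed by −0.48 ± 0.33 (SE), Slc44a1 by −0.35 ± 0.26 and Slc10a4 by −0.21 ± 0.27 (n = 3 per group; limma adjusted p = 0.990 for each). Over 4 libraries the differences were −0.024 for Slc5a7, −0.098 for Slc44a1 and −0.061 for Slc10a4 (limma adjusted p from 0.581 to 0.959). The 13 genes of the vesicular proton pump, which powers all of these transporters, and of the AP-3 adaptor, which sorts vesicle proteins, had a median difference of 0.26 over 6 libraries, with 12 of 13 positive. Among them were Atp6v1e1 (0.40 ± 0.48, SE), Ap3m2 (0.31 ± 0.39) and Atp6v1b2 (0.26 ± 0.36), none past the threshold (limma adjusted p = 0.990 for each). Over 4 libraries the median of the 13 was 0.022, with 10 of 13 positive, and Atp6v1e1 differed by 0.064, Ap3m2 by 0.12 and Atp6v1b2 by 0.049 (limma adjusted p from 0.426 to 0.694). The mean of this list was 1.159 above wild-type 2 and 3 in Arl13b-/- 2 and 0.60 above in wild-type 1, the libraries where general neuron markers were 2.18 and 1.098 above.

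**Figure D5:**
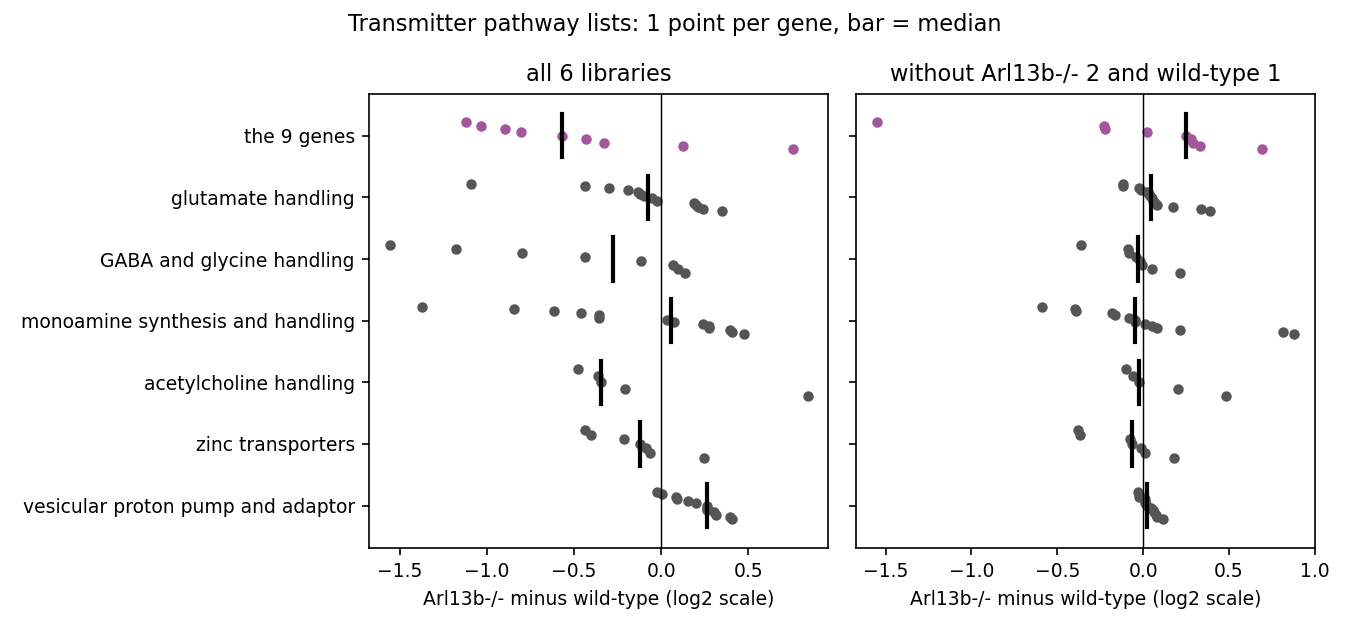
Difference, Arl13b-/- minus wild-type on the log2 scale, of each gene of the 9 (purple) and of 6 lists of related transmitter genes (grey), over all 6 libraries on the left and over the 4-library comparison on the right; each point is a gene and each black bar the median of its list. Medians of the 6 lists lie between −0.35 and 0.26 on the left and between −0.064 and 0.048 on the right, and none of the points passed the threshold.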

How the data were processed

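Poly(A) RNA-seq libraries of telencephalon, 3 Arl13b-/- and 3 wild-type, were grouped by the genotype and title labels. A single table was deposited by the authors, with variance-stabilised values on a log2 scale, from 5.13 to 18.39, for 24444 symbols. Build mm9 is named per the submitters' processing notes, as are the tools Salmon 0.9.1, STAR 2.6.0, DESeq2, DESeq 1.16.1 and CASAVA, whose roles are unstated. Annotation, strandedness and filters: not given in the sources used here.

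The lowest value, shared by all libraries, is that of a count of 0, and it was used to invert the transformation to normalized counts. Per library 1 read was worth 0.536 to 1.31 normalized counts. Among low values (under 30 reads) 70.1% to 80.3% came within 0.05 of whole reads, so no count test was run. Low counts are limited by that precision.

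Genes with a mean at least 1 above the lowest value were kept (14249, all 9 genes among them). The two-sided test was that of limma 3.58.1 (R 4.3.3), its moderation following the mean-variance trend, and p-values were adjusted by Benjamini-Hochberg over all genes kept, at a threshold of 0.05. Exon lengths are from GENCODE M21. Figures were drawn with matplotlib 3.10.9. Named genes are the 9, up to 3 of smallest p in each of 6 related lists, any of these past the threshold, up to 3 per marker list, the 3 nearest in course to each of the 9, Xist and Ddx3y. Emx1, En2, Npy, Calb2, Sst, Nrgn, the globin genes and genes overlapping one of the 9 were added after their values were seen. Some genes that these rules name are not reported here. The 9 genes, the lists and the choice of 4 libraries were made with earlier results of these data known. Alternatives were other filters, scalings, moderation, library weights, a replicate block, other scales and leaving out libraries.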

Additional observations from a re-analysis of the deposited data

How the results depend on the processing

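Of 286 values of the 9 genes under other settings, 24 reversed, 3 newly passed and 259 kept their direction and their side of the threshold. Slc30a3 and Slc18a2 kept their direction in every setting of both comparisons. Over 6 libraries, with 0 genes past the threshold, 3 passed with no filter (Khdc3, Pou2af1 and Ucn2), 110 with library weights, 36 in the 4-library comparison and 0 to 4 when 1 library was left out; the 4 were the Y-linked Ddx3y, Eif2s3y, Kdm5d and Uty, without wild-type 1. Library weights were 4.96, 0.0255 and 3.27 in Arl13b-/- 1 to 3 and 0.102, 5.04 and 4.69 in wild-type 1 to 3. They turned Slc17a6 to 0.019, Slc17a7 to −1.49, Gad1 to 0.27, Gad2 to 0.28, Slc32a1 to 0.32 and Th to 0.24; the 4-library values were 0.021, −1.55, 0.29, 0.28, 0.33 and 0.25. Slc17a7 was −0.32 relative to general neuron markers, −0.37 on log2(count + 1), −0.24 on log2(count + 10) and −2.08 to 1.36 with 1 library left out. With 1 library left out Gad2 ran from −1.82 to 0.21 and Th from −1.39 to 0.36; quantile normalization turned Slc18a3 to 0.010. The neuron-marker scaling moved the median of all genes to −0.44 over 6 libraries and −0.098 over 4, and that of the 61 pathway genes to −0.47 over 6. Over 4 libraries, with 36 genes past the threshold, 1 passed with no filter (Cd300lg), 59 with quantile normalization, 312 relative to neuron markers, 7 with no trend, 98 with robust moderation, and 6 without wild-type 2 to 725 without Arl13b-/- 1. Pathway genes past the threshold were 2 relative to neuron markers (Ddc and Slc30a4) and 0 to 3 with 1 library left out (Ache, Ddc and Slc1a2 without Arl13b-/- 1). Their median was −0.0049 with no filter, −0.0051 with median centring, −0.019 with quantile normalization, −0.11 relative to neuron markers and 0.0040 to 0.021 with 1 library left out. Slc17a6 was −0.0073 with quantile normalization, −0.10 relative to neuron markers and −0.076 to 0.12 with 1 library left out. Slc17a7 was −1.67 relative to neuron markers and −1.81 to −1.29 with 1 library left out. Where samples or genes were not removed, the cause of a change was not tested. Same-numbered libraries deviated from their group means with correlations of −0.714, −0.707 and 0.623. Those means include Arl13b-/- 2 and wild-type 1, which stood apart under different numbers, so the correlations cannot show whether the numbers pair libraries. With the replicate block 0 genes passed over 6 libraries and Slc30a3 stayed at 0.76. The groups of the 4-library comparison share 1 number, so no block could be fitted there. Low counts, as in Slc18a3, limit the precision.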
